A study of Macaca fascicularis with 16 samples.

Results

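The HOXC and HOXD clusters are groups of neighbouring genes that encode homeodomain transcription factors. From them 10 genes were followed along the aorta of the cynomolgus monkey (Macaca fascicularis), namely HOXC4, HOXC5, HOXC6, HOXC8 and HOXC9 on chromosome 11 and HOXD3, HOXD4, HOXD8, HOXD9 and HOXD10 on chromosome 12. They were taken by their NCBI GeneIDs and make up 10 of the 32846 rows of the count table. All 10 were among the 15926 genes that passed the filter on low counts. HOXD10 passed it only through its infrarenal libraries, so its infrarenal calls and its share in the counts below are not independent of the filter. RNA sequencing was done on 16 libraries, 4 from each of the infrarenal (below the kidneys), suprarenal (above them), descending and ascending aorta. All came from normal young monkeys whose treatment is labelled as baseline. No group carried an agent or an altered allele. The study's title concerns NOTCH3 and the elastic fibres of the infrarenal aorta.

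HOX genes lie on the chromosome in the order in which they act along the body axis of the embryo. In the mouse, genes with low paralog numbers are switched on early and far forward, and genes with high numbers later and further back, which is called collinearity. Adult smooth muscle and fibroblasts keep a positional HOX code. The wall of the ascending aorta is built by cells of the neural crest and heart fields, and the wall further down by cells from paraxial and lateral mesoderm.

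Library totals, in 1e6 counts, were 14.4 to 17.63 for infrarenal, 14.65 to 21.41 for suprarenal, 15.95 to 17.75 for descending and 15.55 to 16.51 for ascending aorta. Levels are given in CPM, the count divided by the library total in units of 1e6 after TMM scaling, which corrects for differences in composition between libraries. A single count was worth 0.0478 to 0.0771 CPM. The labels do not say that libraries are separate animals, so p-values measure only the spread between these libraries. All 7 smooth muscle markers were detected in every region, at a summed level of 13077 to 56322 CPM. Infrarenal replicate 1, suprarenal replicate 3 and ascending replicate 4 stood apart from the rest in an earlier reading of these data, and infrarenal replicate 1 had a TMM factor of 0.736 against 0.977 to 1.08 in the others. Each count of member genes below was also made without these 3 libraries. Shares over all tested genes are not given for that fit or for every fit without 1 library. There a change in the members cannot be told apart from a change in calls over all genes. CPM are not corrected for gene length, so levels are compared between regions for 1 gene and never between genes.

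Along the vessel 9 of the 10 genes differed among the 4 regions, HOXD3 being the exception. A slope towards the infrarenal end was called for 9, HOXC5 being the one without. In edgeR's quasi-likelihood test with Benjamini-Hochberg adjustment over all tested genes, 9 of 10 members were called at an adjusted p under 0.05 for any difference among regions. The same call was made for 2.02% of all tested genes. The slope is a linear log2 change per step over the regions in the order ascending, descending, suprarenal and infrarenal. It weighs the ascending and infrarenal ends most, so it largely repeats the infrarenal against ascending comparison and does not show a rise at every step. For this slope 9 of 10 members were called higher, against 1.53% of all tested genes. The median slope was 1.68 for the 5 HOXC genes and 1.19 for the 5 HOXD genes, while over all tested genes it was 0.02 on the same log2 scale. Without the 3 libraries, 10 members were called for any difference and 8 for the slope. In bulk tissue, fewer cells of a type and less RNA per cell cannot be told apart.

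**Figure D1:**
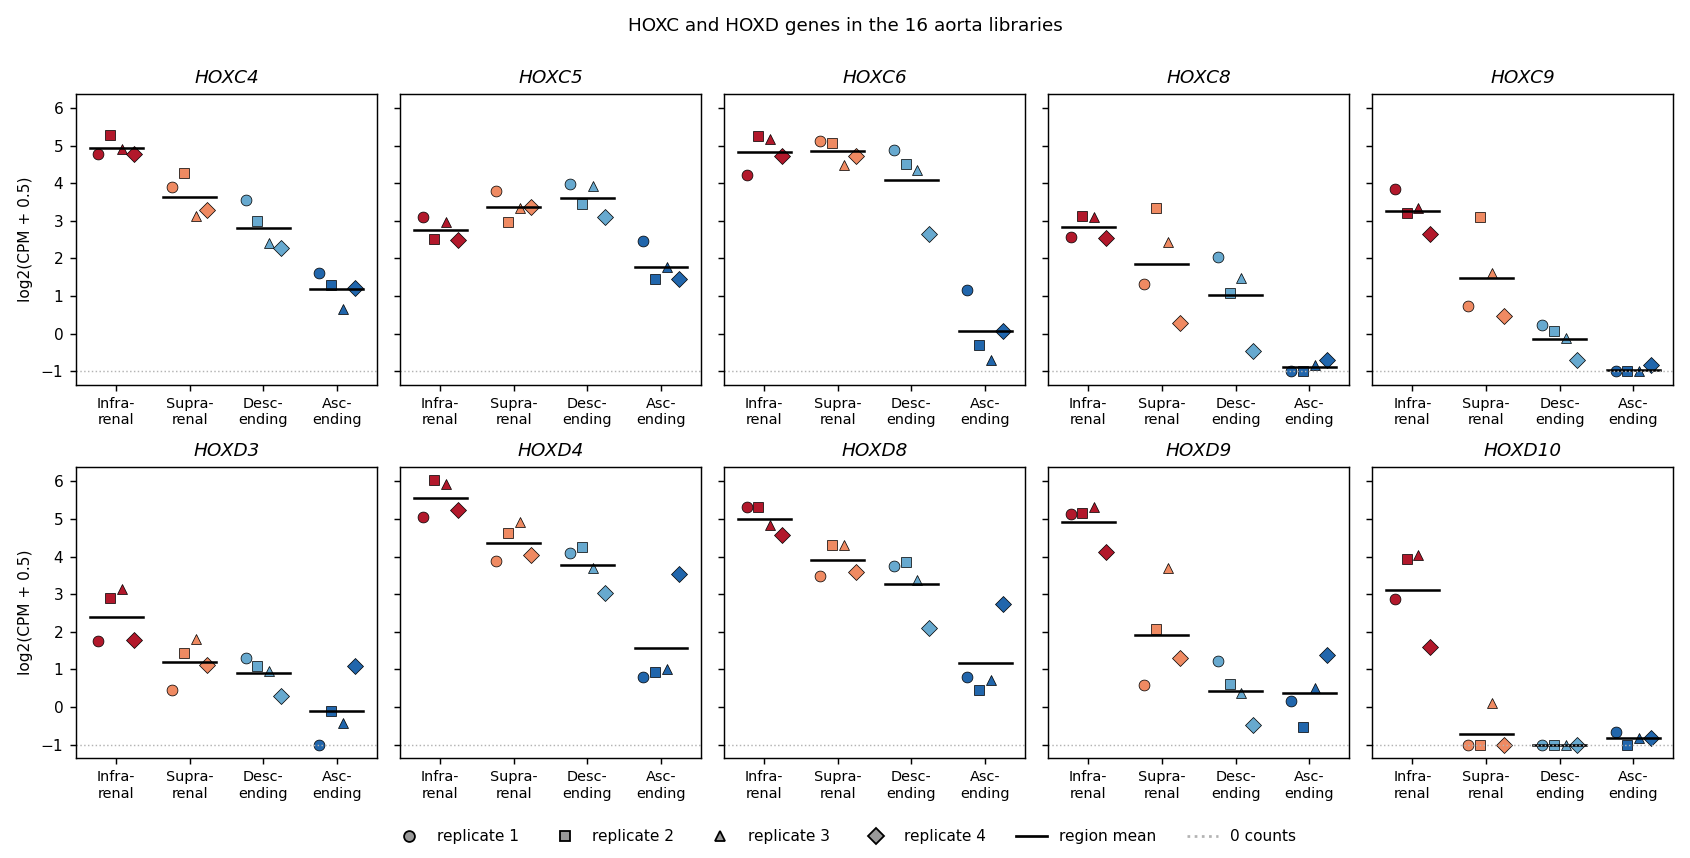
Normalised level of each of the 10 genes in every library as log2(CPM + 0.5), 1 panel for each gene, with regions from infrarenal on the left to ascending on the right, a point for each library shaped by replicate number, a bar at the region mean of the log2 values and a dotted line at 0 counts. The infrarenal points lie above all ascending points in every panel, HOXC5 peaks in the descending region, and HOXD10 is near 0 outside the infrarenal region.

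HOXC4, the member of the HOXC cluster with the lowest number, was highest in the infrarenal and lowest in the ascending aorta. Its level was 27.0, 38.4, 29.6 and 26.8 CPM in the infrarenal libraries and 14.4, 18.8, 8.25 and 9.21 CPM in the suprarenal libraries. It was 11.2, 7.47, 4.85 and 4.32 CPM in the descending libraries and 2.57, 1.97, 1.09 and 1.81 CPM in the ascending libraries. Infrarenal and suprarenal libraries did not overlap, and neither did descending and ascending libraries, while suprarenal and descending libraries did. The slope was 1.29 per step (SE 0.12, adjusted p = 2.7e-05 in edgeR's quasi-likelihood test with Benjamini-Hochberg adjustment, as for every adjusted p that follows unless another test is named). The infrarenal level was 16.3 times the ascending level, a log2 change of 4.03 (SE 0.38, adjusted p = 3.6e-05). Suprarenal against ascending aorta gave 2.77 (SE 0.36, adjusted p = 0.00239), and infrarenal against descending aorta gave 2.13 (SE 0.35, adjusted p = 0.00475). All of these calls for HOXC4 were kept in every alternative run. Descending against ascending aorta, at 1.90 (SE 0.36), missed the threshold with an adjusted p of 0.0616. It was called without descending replicate 4, suprarenal replicate 2 or suprarenal replicate 3 (adjusted p-values of 0.0392 to 0.0461).

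HOXC5, which in humans shares a 5′ noncoding exon with HOXC4 and HOXC6, had another profile and was highest in the descending aorta. It stood at 8.10, 5.18, 7.27 and 5.09 CPM in the infrarenal libraries and 13.3, 7.27, 9.58 and 9.80 CPM in the suprarenal libraries. The descending libraries held 15.4, 10.4, 14.6 and 8.04 CPM and the ascending libraries 5.01, 2.22, 2.91 and 2.23 CPM. Every ascending library lay below every other library, and the other 3 regions overlapped with their neighbours in the order of levels. The descending aorta averaged 12.1 ± 3.49 CPM against 3.09 ± 1.32 CPM in the ascending aorta (SD, n = 4 each), a log2 change of 1.97 (SE 0.32, adjusted p = 0.0167). Suprarenal against ascending aorta gave 1.69 (SE 0.32, adjusted p = 0.0384). These 2 calls were fragile, since leaving out a single library ended the descending call in 5 of 16 fits and the suprarenal call in 11 of 16, with adjusted p-values of at most 0.167. The descending call was lost without ascending replicate 2, 3 or 4 or descending replicate 1 or 3. The suprarenal call was lost without ascending replicate 2, 3 or 4, descending replicate 2 or 3, infrarenal replicate 2 or 3 or any 1 of the 4 suprarenal libraries. Infrarenal against descending aorta gave -0.92 (SE 0.31), which had an adjusted p of 0.193. The slope was 0.29 (SE 0.10, adjusted p = 0.157), and it was called without ascending replicate 1 (adjusted p = 0.0462), as was infrarenal against ascending aorta (adjusted p = 0.0303).

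HOXC6, a gene of thoracic identity in the mouse skeleton, averaged 29.2 ± 8.98 CPM in infrarenal, 28.8 ± 5.85 in suprarenal, 19.2 ± 9.76 in descending and 0.682 ± 0.736 CPM in ascending aorta (SD, n = 4 each). The libraries held 18.0, 37.4, 35.4 and 25.9 CPM in the infrarenal region and 34.5, 32.9, 22.1 and 25.8 CPM in the suprarenal region. In the descending region they held 29.0, 22.3, 19.8 and 5.76 CPM and in the ascending region 1.75, 0.309, 0.121 and 0.543 CPM. The lowest library outside the ascending region, descending replicate 4, was still above the highest ascending library. The infrarenal level was 42.5 times the ascending level (log2 change 5.41, SE 0.63, adjusted p = 0.000213). The log2 change was 5.39 for suprarenal against ascending aorta (SE 0.63, adjusted p = 0.000770) and 4.81 for descending against ascending aorta (SE 0.62, adjusted p = 0.00315). Between the infrarenal and suprarenal aorta it was 0.02 (SE 0.49, adjusted p = 0.999), a value whose sign depended on the setting. Ascending replicate 1 held the highest ascending level, and without it these log2 changes were 6.46 for infrarenal, 6.44 for suprarenal and 5.85 for descending against ascending aorta. The descending call was lost with limma voom and in a fit of only the 8 libraries compared (adjusted p-values of 0.0728 and 0.0537).

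HOXC8, which patterns lower thoracic vertebrae and brachial motor neurons in the mouse, came close to the limit of detection in the ascending aorta. Its levels were 5.40, 8.19, 8.13 and 5.32 CPM in the infrarenal libraries and 1.98, 9.71, 4.89 and 0.709 CPM in the suprarenal libraries. They were 3.60, 1.63, 2.30 and 0.222 CPM in the descending libraries and 0, 0, 0.0605 and 0.121 CPM in the ascending libraries, the ascending values resting on 3 counts in all. Infrarenal libraries lay above all descending libraries, suprarenal libraries overlapped with both, and all of them lay above all ascending libraries. By summed counts the infrarenal level was 148 times the ascending level, with an exact 95% interval of 50.1 to 718 that covers counting error only. The suprarenal level was 101 times (34.3 to 492) and the descending level 41.2 times (13.8 to 203) the ascending level on the same measure. The adjusted p was 0.00151 for infrarenal against ascending aorta, 0.0162 for suprarenal against ascending aorta and 0.0776 for descending against ascending aorta. The suprarenal call was lost without ascending replicate 1, 2 or 3, with adjusted p-values of 0.0718 to 0.0835, and also with limma voom (0.249) and in a fit of only the 8 libraries compared (0.107). The fitted suprarenal change of 6.35 became 7.27 without ascending replicate 4, which held 2 of the 3 ascending counts, and 5.56 without suprarenal replicate 2, while the infrarenal change of 6.99 became 7.91 without ascending replicate 4. The test of any difference was passed in edgeR and not in limma voom (adjusted p = 0.0876). The descending difference was called without descending replicate 4 (adjusted p = 0.0329). The slope was 2.21 per step (SE 0.33, adjusted p = 0.00121).

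HOXC9, which sets thoracic motor neuron identity in the mouse, had the steepest slope of the 10 genes and was the only one with suprarenal libraries all above the descending libraries. It was at 13.9, 8.73, 9.70 and 5.83 CPM in the infrarenal libraries and 1.18, 8.13, 2.54 and 0.886 CPM in the suprarenal libraries. In the descending libraries it was at 0.672, 0.542, 0.425 and 0.111 CPM, and in the ascending libraries at 0, 0, 0 and 0.0604 CPM, which is 1 count in 4 libraries. Infrarenal and suprarenal libraries overlapped, and the regions were otherwise apart. The slope was 2.90 per step (SE 0.32, adjusted p = 0.000118). The infrarenal level was 21.6 times the descending level, a log2 change of 4.43 (SE 0.73, adjusted p = 0.00486). Summed counts put the infrarenal level at 601 times the ascending level, with an exact interval of 107 to 23789 (adjusted p = 0.000216), and the suprarenal level at 228 times (40.6 to 9050, adjusted p = 0.00417). The suprarenal call was lost with limma voom (adjusted p = 0.0568) and in a fit of only the 8 libraries compared (adjusted p = 0.0865). The fitted suprarenal change of 7.13 became 8.73 without ascending replicate 4, which held the only ascending count, and 6.06 without suprarenal replicate 2, and the infrarenal change of 8.70 became 10.30 without ascending replicate 4. The descending level was 28.0 times the ascending level (4.65 to 1145), and this was not called (adjusted p = 0.245). Suprarenal against descending aorta, at 2.86 (SE 0.70), had an adjusted p of 1.00 and was not called. For HOXC8 and HOXC9 the fitted slope leans on a region with next to no counts and depends on the small count that the fit adds.

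HOXD3, which shapes the first neck vertebra in the mouse, had the smallest slope of the 5 HOXD members. Its levels were 2.85, 6.98, 8.26 and 2.94 CPM in the infrarenal libraries and 0.866, 2.20, 2.98 and 1.65 CPM in the suprarenal libraries. They were 1.96, 1.63, 1.46 and 0.720 CPM in the descending libraries and 0, 0.432, 0.242 and 1.63 CPM in the ascending libraries, with ascending replicate 4 above the other 3 of its region. Infrarenal libraries lay above all descending and ascending libraries, and the other regions overlapped. Infrarenal against ascending aorta was called (log2 change 3.17, SE 0.78, adjusted p = 0.0334). Its slope was 0.99 (SE 0.24, adjusted p = 0.0320). Both calls were lost without ascending replicate 2 or 3 or infrarenal replicate 2 or 3, with adjusted p-values of 0.0813 to 0.115, and the infrarenal call also in a fit of only the 8 libraries compared (adjusted p = 0.154). Without ascending replicate 4 the infrarenal change was 4.50 (adjusted p = 0.00431). The test of any difference had an adjusted p of 0.140, and of 0.0181 without ascending replicate 4.

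HOXD4, which acts with the other group 4 genes on neck vertebrae in the mouse, was called distally but varied in the ascending aorta. The libraries held 32.5, 64.8, 60.3 and 37.1 CPM in the infrarenal region and 14.3, 24.2, 29.4 and 15.9 CPM in the suprarenal region. They held 16.7, 18.7, 12.4 and 7.70 CPM in the descending region and 1.25, 1.42, 1.51 and 11.0 CPM in the ascending region. Infrarenal libraries lay above all others, and ascending replicate 4 fell inside the range of the descending libraries while the other 3 ascending libraries were far below it. The slope was 1.16 per step (SE 0.20, adjusted p = 0.00275). Infrarenal aorta held 12.8 times the level of ascending aorta (log2 change 3.68, SE 0.63, adjusted p = 0.00349). Without ascending replicate 4 that change was 5.12 (adjusted p = 4.2e-05). Descending against ascending aorta gave 1.87 (SE 0.59, adjusted p = 0.425). Without the same library it was 3.30 (SE 0.39, adjusted p = 0.00327). The call of any difference was lost without infrarenal replicate 2 (adjusted p = 0.0599).

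HOXD8, a middle gene of the cluster, followed HOXD4 closely. Its levels were 39.4, 39.1, 28.0 and 23.3 CPM in the infrarenal libraries and 10.6, 19.2, 19.2 and 11.6 CPM in the suprarenal libraries. They were 12.9, 13.8, 9.89 and 3.82 CPM in the descending libraries and 1.25, 0.864, 1.15 and 6.16 CPM in the ascending libraries. Infrarenal libraries again lay above all others, and ascending replicate 4 exceeded descending replicate 4. Over the 16 libraries the log2 levels of HOXD4 and HOXD8 had a Pearson r of 0.981, and of 0.894 after region means were taken out, the same libraries and depths lying behind both genes. The slope of HOXD8 was 1.19 (SE 0.18, adjusted p = 0.00135), and infrarenal against ascending aorta gave 3.78 (SE 0.58, adjusted p = 0.00159), or 4.89 without ascending replicate 4 (adjusted p = 5.7e-05). Descending against ascending aorta gave 2.10 (SE 0.55, adjusted p = 0.245), with an adjusted p of 0.00797 without ascending replicate 4.

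HOXD9, active in the lumbar spinal cord and hindlimb of the mouse, was high in the infrarenal aorta and low in both thoracic regions. It was at 34.3, 35.3, 39.3 and 16.9 CPM in the infrarenal libraries and 0.990, 3.68, 12.5 and 1.95 CPM in the suprarenal libraries. It was at 1.83, 1.02, 0.788 and 0.222 CPM in the descending libraries and 0.627, 0.185, 0.908 and 2.11 CPM in the ascending libraries. Infrarenal libraries lay above all others, and suprarenal replicate 3 was well above the other suprarenal libraries. Descending and ascending libraries covered one range, and their means were 0.967 ± 0.668 and 0.958 ± 0.825 CPM (SD, n = 4 each). Infrarenal aorta held 32.5 times the level of descending aorta (log2 change 5.02, SE 0.84, adjusted p = 0.00517), and against ascending aorta the log2 change was 5.02 (SE 0.84, adjusted p = 0.00298). Without ascending replicate 4 the second of these was 5.76 (adjusted p = 0.00273). Infrarenal against suprarenal aorta gave 2.72 (SE 0.74, adjusted p = 0.243), and without suprarenal replicate 3 an adjusted p of 0.0361. Descending against ascending aorta gave 0.00 with an SE of 0.81 (adjusted p = 0.999), which leaves room for a change of either sign.

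HOXD10, which specifies lumbar motor neurons in the mouse, was read almost wholly in the infrarenal aorta. Its levels were 6.86, 14.7, 16.1 and 2.55 CPM in the infrarenal libraries and 0, 0, 0.571 and 0 CPM in the suprarenal libraries, where all 9 counts came from suprarenal replicate 3. The 4 descending libraries held 0 counts, and the ascending libraries held 4 counts, or 0.125, 0, 0.0605 and 0.0604 CPM. Because only the infrarenal libraries brought HOXD10 through the filter on low counts, a high infrarenal level was a condition of testing it. The infrarenal level was at least 225 times the descending level, set against a floor of 3 counts over the 4 descending libraries (624 counts against 0, adjusted p = 0.00494). Infrarenal against ascending aorta gave a log2 change of 7.19 (SE 1.21, adjusted p = 0.00522). Infrarenal against suprarenal aorta gave 6.14 (SE 1.11), just missing the threshold at an adjusted p of 0.0522, and 0.0106 without suprarenal replicate 3. The fitted slope was 2.58 (SE 0.41, adjusted p = 0.00334), but without suprarenal replicate 3 both middle regions are at 0 and the slope had an adjusted p of 1.00.

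**Figure D2:**
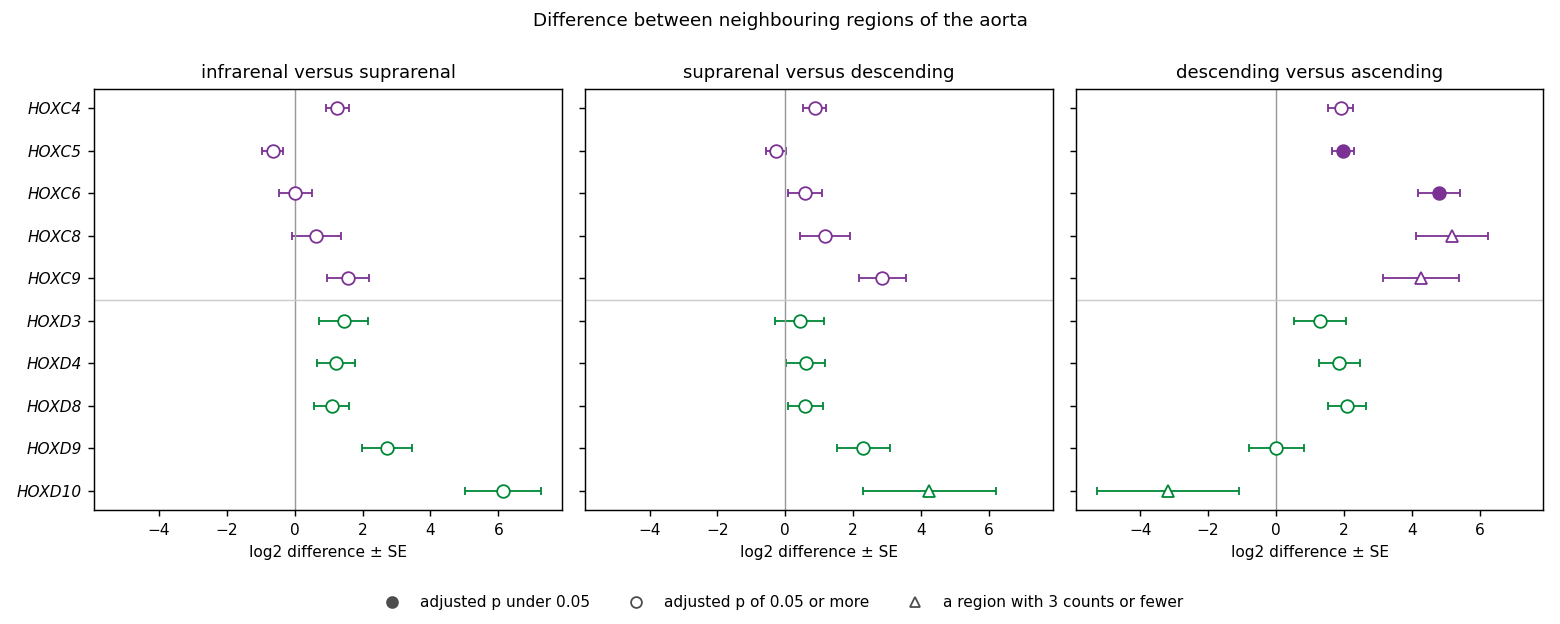
Fitted log2 difference between neighbouring regions, distal over proximal, for each of the 10 genes, with bars of 1 SE, filled symbols for an adjusted p under 0.05 and triangles where a region held 3 counts or fewer. Filled symbols stand at HOXC5 and HOXC6 in descending versus ascending aorta and nowhere else, and the HOXC genes lie at 1.90 or more there.

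Read in paralog order, the slopes of the HOXD genes were 0.99 for HOXD3, 1.16 for HOXD4, 1.19 for HOXD8, 1.74 for HOXD9 and 2.58 for HOXD10, so each was above the one before. Those of the HOXC genes were 1.29 for HOXC4, 0.29 for HOXC5, 1.68 for HOXC6, 2.21 for HOXC8 and 2.90 for HOXC9, and HOXC5 broke the order. HOXC10, no member but next in the cluster, broke it as well with a slope of 0.66. The differences between these slopes were not tested, and neighbours such as HOXD4 and HOXD8 lay within 1 SE of each other. In fits without 1 library the slope ran from 1.08 to 1.59 for HOXD4 and from 1.11 to 1.52 for HOXD8, so their order is not settled. The HOXD10 slope was not called without suprarenal replicate 3. The slopes of HOXC8, HOXC9 and HOXD10 lean on regions with next to no counts and depend on the small count that the fit adds. The order at the high-numbered end of both clusters is therefore not settled either.

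At the ascending end of the vessel, whose 4 libraries serve in each of the next comparisons, edgeR's calls for the suprarenal and descending aorta were all in HOXC genes. In infrarenal against ascending aorta 9 of 10 members were called higher, against 1.43% of all tested genes. These were 4 of 5 HOXC and 5 of 5 HOXD genes. All 10 members had infrarenal libraries entirely above the ascending ones (2.97% of all tested genes). HOXD10 is among them and was tested only because of its high infrarenal level. In suprarenal against ascending aorta 5 of 5 HOXC and 0 of 5 HOXD genes were called higher (0.17% of all tested genes), and libraries lay entirely apart for 5 HOXC and 2 HOXD genes (1.74%). In descending against ascending aorta 2 of 5 HOXC genes, HOXC5 and HOXC6, and 0 of 5 HOXD genes were called (0.0879% of all tested genes), and all 5 HOXC genes but no HOXD gene had descending libraries entirely above (5.42%). The median log2 change in that pair was 4.27 over the HOXC genes, 4.81 with genes at 3 counts or fewer set to their ratio of counts, and 1.30 over the HOXD genes. The HOXD median was 2.63 without ascending replicate 4 and 2.25 with limma voom, where the HOXC median was 3.29. The 0 calls in HOXD came from edgeR, which gave 2 at an unadjusted p under 0.05 in the descending pair and 4 in the suprarenal pair. DESeq2 called 5 HOXC genes and 1 HOXD gene, HOXD8, in the descending pair, and 5 HOXC and 2 HOXD genes, HOXD4 and HOXD8, in the suprarenal pair. It called 177 and 184 of all 15926 tested genes in these pairs, where edgeR called 18 and 41. Limma voom called 1 HOXC and 0 HOXD genes in the descending pair, and 3 HOXC and 2 HOXD genes, again HOXD4 and HOXD8, in the suprarenal pair. Over all tested genes limma voom called 9 and 42. Without the 3 libraries that stood apart, 4 HOXC and 5 HOXD genes were called for infrarenal, 4 and 2 for suprarenal and 3 and 2 for descending against ascending aorta. The suprarenal count was 3 without ascending replicate 2 or 3, and the descending count was 1 without ascending replicate 2 or 3 or descending replicate 1 or 3. Over all tested genes the suprarenal pair had 19 calls without ascending replicate 2 and 20 without ascending replicate 3. The descending pair had 8 and 7 calls in these fits, and 12 and 17 without descending replicate 1 and 3.

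These calls moved with ascending replicate 4. Without it, descending against ascending aorta called 1 HOXC and 2 HOXD genes, and suprarenal against ascending aorta called 4 HOXC and 2 HOXD genes, HOXD4 and HOXD8 in both pairs. Of all 16146 genes tested in that fit, 24 and 66 were called. Ascending replicate 4 was singled out from these same data and was the highest ascending library for HOXD3, HOXD4, HOXD8 and HOXD9. Leaving it out removes the ascending values nearest to the other regions for these genes. The adjusted p-values without it, here and gene by gene above, therefore show dependence on 1 library and are no further support. HOXD8 was also called in the suprarenal pair without descending replicate 4 (adjusted p = 0.0497). The difference between clusters was computed within libraries for 3 pairs of paralogs, as log2 of the HOXC level minus log2 of the HOXD level, each with 0.5 CPM added. Only HOXC4 minus HOXD4 can be read, because HOXC8 and HOXC9 had 3 counts and 1 count in the ascending aorta and their values there are set by the added 0.5 CPM. In infrarenal against ascending aorta HOXC4 minus HOXD4 changed by -0.25 (SE 0.71, exact two-sided permutation p = 0.83, or 0.857 after Benjamini-Hochberg adjustment over the 3 pairs). In descending against ascending aorta, chosen after the values were seen, it changed by -0.59 (SE 0.71, exact permutation p = 0.429). The smallest p that 70 splits of 4 against 4 libraries can give is 0.0286. These standard errors leave room for changes of more than 1 log2 unit, so the test does not show whether these genes of the clusters differ in their change. Suprarenal against ascending aorta was not tested in this way.

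In ascending replicate 4, 4 of the 5 HOXD genes stood above the other 3 ascending libraries, and HOXC4, HOXC5 and HOXC6 lay within their range. HOXD3, HOXD4, HOXD8 and HOXD9 were at 7.25, 7.87, 5.65 and 3.69 times the mean of the other 3 ascending libraries, and HOXC4, HOXC5 and HOXC6 were at 0.964, 0.661 and 0.746 times that mean. HOXD10 was at 0.974 times that mean, on 1 count. HOXC8 was at 5.98 times that mean and HOXC9 was read in no other ascending library, but on 2 counts and 1 count. In the same library the 6 endothelial markers summed to 1654 CPM against 314 to 505 in the other 3, and the 6 fibroblast markers to 3978 CPM against 1498 to 1890. The 9 adipocyte markers summed to 618 CPM against 146 to 180, with UCP1, the brown fat uncoupling protein, at 0 in all 4 ascending libraries. The 6 mesothelial markers summed to 208 CPM against 78.8 to 108, and the 7 smooth muscle markers to 17304 CPM against 28189 to 35462. Every listed marker of these types had a row, and all but 1 adipocyte marker were detected in the ascending region. The part of other cell types in the HOXD values was not tested.

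Suprarenal replicate 3 was the highest suprarenal library in 4 of 5 HOXD genes. Its endothelial markers summed to 2903 CPM against 391 to 663 in the other suprarenal libraries, its adipocyte markers to 3137 CPM against 145 to 808, its fibroblast markers to 6887 CPM against 2434 to 4966 and its smooth muscle markers to 13077 CPM against 27084 to 32720. Descending replicate 4 was the lowest descending library in all 5 HOXC genes and 4 of 5 HOXD genes, the fifth being HOXD10 with 0 counts in every descending library. There the adipocyte markers summed to 335 CPM against 1163 to 3757 in the other descending libraries and the fibroblast markers to 3492 CPM against 4676 to 6028. Without descending replicate 4, descending against ascending aorta called 4 members, all HOXC, among 24 calls over 16201 tested genes. Other libraries went another way. Infrarenal replicate 4 was the lowest infrarenal library in 4 of 5 HOXC and 3 of 5 HOXD genes. Its fibroblast markers summed to 7424 CPM against 3897 to 6758 in the other infrarenal libraries. Suprarenal replicate 2 was the highest suprarenal library in 3 of 5 HOXC genes. Its adipocyte markers summed to 145 CPM against 677 to 3137. Across regions the fibroblast sum ran from 3897 to 7424 CPM in infrarenal, 2434 to 6887 in suprarenal, 3492 to 6028 in descending and 1498 to 3978 CPM in ascending aorta. The adipocyte sum ran from 139 to 3904, 145 to 3137, 335 to 3757 and 146 to 618 CPM in those regions. The endothelial sum ran from 666 to 2355 CPM in infrarenal (median 928), 391 to 2903 in suprarenal (median 595), 580 to 836 in descending (median 597) and 314 to 1654 CPM in ascending aorta (median 419). The mesothelial sum was highest in the ascending aorta, with 8.31 to 17.6 CPM in infrarenal, 16.2 to 27.2 in suprarenal, 18.6 to 68.1 in descending and 78.8 to 208 CPM in ascending aorta. KRT8, a keratin gene of that list, was at 2.95 to 9.64 CPM in the infrarenal and 64.9 to 95.4 CPM in the ascending aorta, and the median of MSLN, which encodes mesothelin, was under 1 CPM in every region. The part of these markers in the regional differences was not tested.

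**Figure D3:**
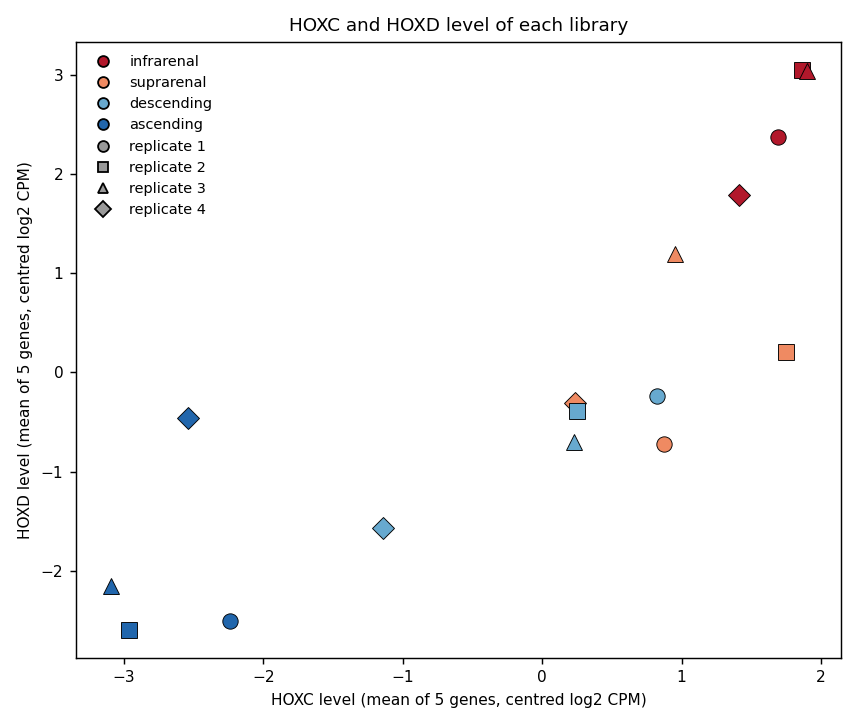
HOXC level against HOXD level of each of the 16 libraries, each the mean over 5 genes of log2 CPM centred on the gene's mean (log2 units), coloured by region and shaped by replicate number. Ascending libraries lie between -3.09 and -2.24 on the HOXC axis, and on the HOXD axis ascending replicate 4 lies at -0.46 against -2.59 to -2.15 in the other 3.

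Among the 3 distal regions, most HOXD genes had infrarenal libraries apart from the rest. HOXD10 is counted in the infrarenal comparisons that follow, although it was tested only because of its high infrarenal level. In infrarenal against descending aorta 4 members were called higher (0.634% of all tested genes), HOXC4, HOXC9, HOXD9 and HOXD10, and 8 had infrarenal libraries entirely above, including all 5 HOXD genes (4.55%). Without the 3 libraries 6 were called, and without ascending replicate 4 alone HOXD4 and HOXD8 joined the calls (adjusted p = 0.00701 and 0.0208). Of all 16146 genes tested without ascending replicate 4, 291 were called in this pair, against 263 in the main fit. In infrarenal against suprarenal aorta 0 members were called by edgeR (0.201% of all tested genes), 5 had an unadjusted p under 0.05, DESeq2 called 3 and limma voom 1. Over all tested genes DESeq2 called 167 and limma voom 15 in that pair, against 32 by edgeR. Infrarenal libraries lay entirely above suprarenal ones in 5 members, HOXC4, HOXD4, HOXD8, HOXD9 and HOXD10 (0.867% of all tested genes). Without the 3 libraries HOXD4, HOXD9 and HOXD10 were called, and without suprarenal replicate 3 alone HOXD9 and HOXD10 were. In suprarenal against descending aorta 0 members were called (0% of all tested genes), 3 had an unadjusted p under 0.05, DESeq2 and limma voom called 0, and HOXC9 alone had libraries entirely apart (0.854%). The median log2 change of infrarenal over suprarenal aorta was 0.64 over the HOXC genes (1.42 without suprarenal replicate 2) and 1.45 over the HOXD genes, with -0.00 over all tested genes.

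Most members varied together over the libraries, within a cluster and nearly as much between clusters. Over the 16 libraries the median Pearson r of log2 CPM was 0.840 for the 10 pairs within HOXC, 0.805 for the 10 pairs within HOXD and 0.777 for the 25 pairs between them. With region means taken out it was 0.43, 0.657 and 0.224. All 10 HOXD pairs, 9 of 10 HOXC pairs and 20 of 25 pairs between clusters were positive there. HOXC5 with HOXC9 was the lowest HOXC pair at -0.024, and HOXC8 with HOXC9 the highest at 0.865. These are descriptions over shared libraries, and genes of a cluster can share reads. In RefSeq's annotation of MFA8v1.1, a telomere-to-telomere assembly used for names and neighbours, HOXC4 overlaps HOXC5 and HOXC6. HOXC6 overlaps HOXC8 and HOXC9, and HOXC8 overlaps HOXC9. HOXC10 overlaps all 5 HOXC members, and HOXD3 overlaps HOXD4. Neither the annotation that was counted nor the strand setting is given in the sources used here, so a value for these genes may hold reads of a neighbour. HOXD8 and HOXD9 overlap no gene.

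The other genes of the clusters were mostly near 0. HOXC10, a hindlimb and lumbar gene in the mouse, averaged 7.11 ± 3.03 CPM in infrarenal, 4.27 ± 1.46 in suprarenal, 2.68 ± 0.663 in descending and 1.80 ± 0.830 CPM in ascending aorta (SD, n = 4 each). Its slope of 0.66 (SE 0.12, adjusted p = 0.00522) was called. HOXD1, the gene with the lowest number in its cluster, averaged 5.08 ± 2.77, 3.16 ± 2.16, 2.32 ± 0.594 and 1.11 ± 1.07 CPM in the same regions, and its slope of 0.70 (SE 0.21) was not called (adjusted p = 0.0904). HOXC11 had 11 counts in 3 infrarenal libraries and 0 in the other 13. HOXD11 had 2 counts and HOXD12 had 1, all in infrarenal replicate 3, and HOXC12, HOXC13 and HOXD13 had 0 in all 16 libraries. LOC102131505, a long noncoding RNA that overlaps HOXD3 and HOXD4 in that annotation, was chosen after its values were seen. It averaged 7.64 ± 4.27 CPM in infrarenal, 5.12 ± 1.04 in suprarenal, 4.14 ± 1.57 in descending and 0.290 ± 0.159 CPM in ascending aorta. Its descending level was called above the ascending level (log2 change 3.80, SE 0.51, adjusted p = 0.00428), and ascending replicate 4 held 7 of the 19 ascending counts. LOC102137355, which overlaps HOXC10 in that annotation, had another profile. It averaged 0.910 ± 0.538 CPM in infrarenal, 2.94 ± 2.21 in suprarenal, 3.36 ± 1.13 in descending and 1.21 ± 0.733 CPM in ascending aorta. Its slope was -0.14 (SE 0.19, adjusted p = 0.857).

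Genes just outside the clusters were not called in any comparison. Of 8 listed beside the HOXC cluster 5 were tested and 0 called, and of 8 listed beside the HOXD cluster 7 were tested and 0 called, by edgeR. Over all tested genes 2.02% were called for any difference and 592 of 15926 for the slope. At such shares, 0 calls among so few genes does not set them apart from other genes. The smallest adjusted p of any of them was 0.192. COPZ1, a coat protein gene beside HOXC, had a slope of 0.13 (SE 0.06, adjusted p = 0.368) and CALCOCO1 on its other side -0.10 (SE 0.06, adjusted p = 0.630). Beside HOXD, CHN1, a GTPase-activating protein gene, had a slope of -0.25 (SE 0.14, adjusted p = 0.541) and the mitochondrial ATP synthase gene ATP5MC3 0.09 (SE 0.05, adjusted p = 0.467). MTX2 and ATF2 had slopes of 0.09 and 0.07, and CBX5 and SMUG1 had -0.02 and 0.04.

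**Figure D4:**
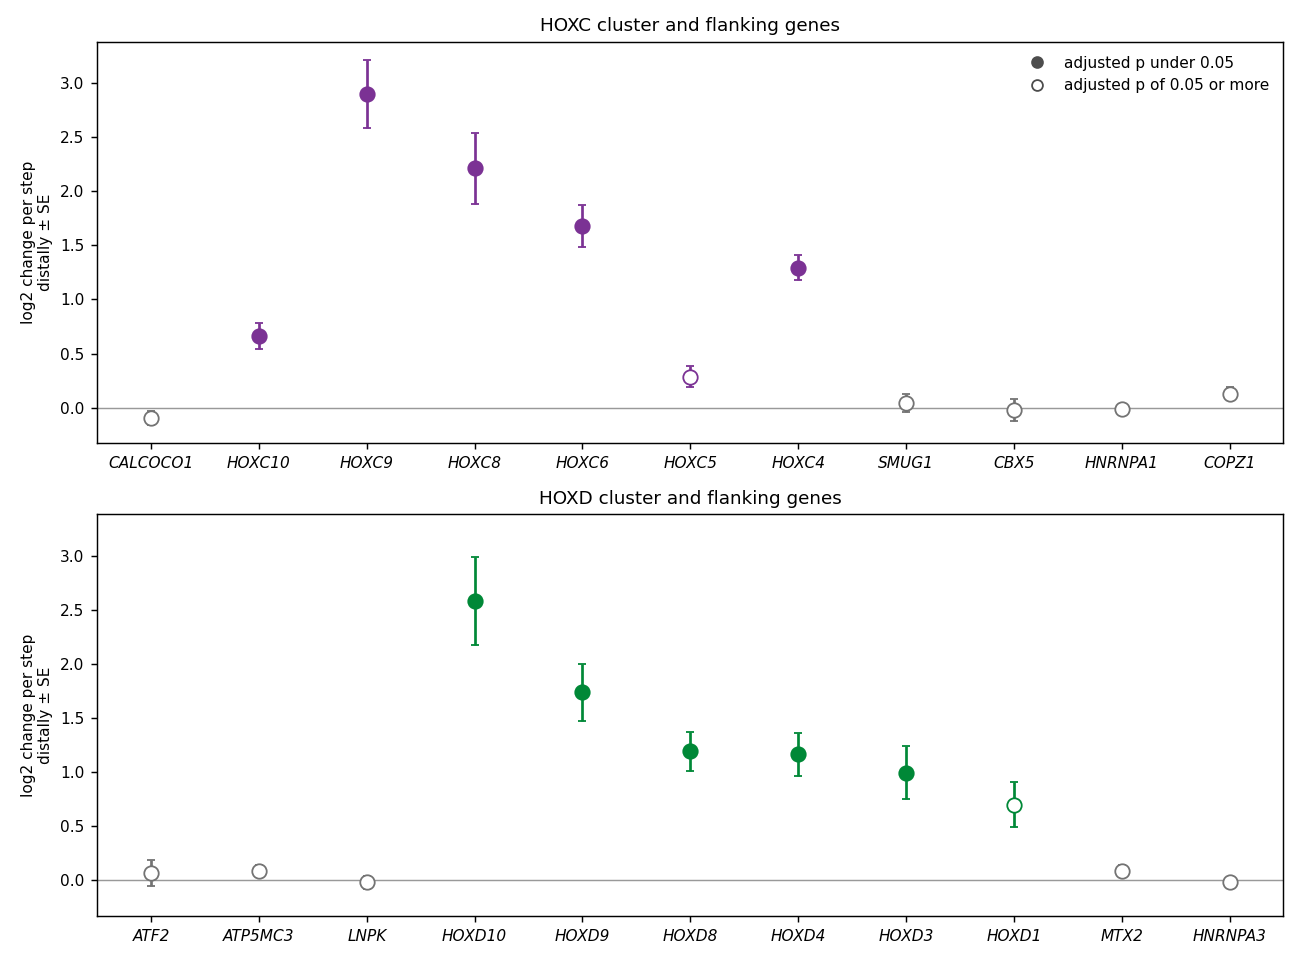
Fitted log2 change for each step distally, with bars of 1 SE, for genes of the HOXC cluster (above) and HOXD cluster (below) in colour and the genes beside them in grey, in gene order and not to distance, filled where the adjusted p was under 0.05. HOXC slopes run from 0.29 at HOXC5 to 2.90 at HOXC9 and HOXD slopes from 0.70 at HOXD1 to 2.58 at HOXD10, while no grey symbol is filled. Over all tested genes 592 of 15926 were called for the slope.

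HOX proteins bind DNA with cofactors of the MEIS and PBX families, and their loci are held silent or active by Polycomb and trithorax proteins and opened by retinoic acid. Of 12 listed cofactors and competitors 11 were tested, and 1, MEIS2, was called for any difference (adjusted p = 0.0286). That call was made for 2.02% of all tested genes. MEIS2 averaged 39.6 ± 4.16 CPM in infrarenal, 75.4 ± 26.9 in suprarenal, 87.7 ± 9.21 in descending and 62.9 ± 9.01 CPM in ascending aorta (SD, n = 4 each). It was called lower in infrarenal than in descending aorta (adjusted p = 0.00880). PKNOX2, PBX2 and GMNN, next in that list by p, had slopes of -0.24, 0.08 and 0.12, none of them called. Of 20 listed regulators 16 were tested, and 1, the retinoic acid receptor gene RARB, was called, in the opposite direction to the HOX genes. RARB averaged 6.03 ± 0.860 CPM in infrarenal, 12.4 ± 3.23 in suprarenal, 13.1 ± 1.13 in descending and 15.8 ± 4.07 CPM in ascending aorta, with a slope of -0.42 (SE 0.07, adjusted p = 0.00334). CBX8, a Polycomb subunit gene, and the retinoic acid receptor genes RARG and RARA had slopes of 0.14, 0.15 and 0.23, none of them called. Of the 16 tested genes of the HOXA and HOXB clusters 9 were called higher and 1 lower in infrarenal than in ascending aorta. Over all 15926 tested genes 228 were called higher and 328 lower. HOXA10, HOXA9, HOXB7 and HOXA7, first in that list by p, had slopes of 2.74, 2.64, 1.44 and 2.05.

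Genes outside the HOX family whose profile was most like a cluster's were named by the highest Pearson r with the cluster's mean over 16 libraries, among 12423 genes. For HOXC they were NKAIN2 (r = 0.940), which encodes a partner of the sodium pump, NOTCH3 (0.925), the Notch receptor of arterial smooth muscle, LOC102131505 (0.922), TENM3 (0.916), a teneurin adhesion protein, and ZNF618 (0.908). For HOXD they were OLFML2A (0.959), an extracellular matrix gene, ANGPT2 (0.942), the TIE2 ligand angiopoietin-2, KCNAB1 (0.934), a potassium channel subunit, COL8A1 (0.932), a short-chain collagen, and JAG1 (0.932), a Notch ligand. With region means taken out, r was 0.451 for NOTCH3 and 0.739 for OLFML2A. These values describe the 16 libraries and rest largely on the region means. LOC102131505 overlaps HOXD3 and HOXD4 in the annotation used for names, so its value may hold their reads.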

How the data were processed

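RNA was sequenced from 16 aortic libraries, 4 each of infrarenal, suprarenal, descending and ascending aorta, extracted per the labels' protocols with a kit for fibrous tissue and prepared with a NEBNext Ultra kit. The authors deposited raw counts for each NCBI GeneID, and the table for the series equalled the 16 library files. Reads were processed with fastp, HISAT2 2.0.5 and featureCounts 1.5.0-p3, per the submitters' processing notes. The build, annotation and strand setting behind the counts were not given in the sources used here. A further 24 rows name mitochondrial RNAs in place of a GeneID, hold 0.0568% of the counts and were kept. Symbols came from RefSeq's annotation of MFA8v1.1 and were found for 24609 rows holding 97.2% of the counts.

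Genes were kept with filterByExpr of edgeR 4.0.16 (R 4.3.3) (min.count 10, min.total.count 15), leaving 15926. Counts were scaled with TMM and fitted with 1 mean for each region and the quasi-likelihood F test over all 16 libraries, with 12 residual degrees of freedom. Tests were of any difference, a linear slope over the 4 regions and the 6 pairs, each adjusted by the Benjamini-Hochberg method over all tested genes, with calls at an adjusted p under 0.05. Pairs of regions that share libraries are not independent. A standard error is the log2 change divided by the square root of F. Where a region had 3 counts or fewer, ratios of summed counts with an exact 95% interval are given, or a bound against a floor of 3 counts, which cover counting error only. Paralog pairs were tested with an exact permutation test of log2 (CPM + 0.5).

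The members and gene lists were chosen with earlier results of these data known. Named genes were all members, every other gene of the clusters, the 4 genes of each list with the smallest p for any difference, and 5 genes for each cluster by likeness. LOC102131505, also named by likeness, and LOC102137355 were described with the clusters after their values were seen. Likeness used genes with a symbol and a mean log2 CPM of at least 1. Alternatives were RLE size factors, library totals, other filters, DESeq2 1.42.0, voom of limma 3.58.1, a replicate block, only the 8 libraries compared, each library left out in turn and 3 libraries left out together. The edgeR fit was tested on simulated counts. No 2 libraries agreed within sampling noise, since chi-square per degree of freedom was at least 29.5 in every pair of a region. Promoter motifs were not analysed here.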

Additional observations from a re-analysis of the deposited data

Results flagged for a closer look

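Within each region the 4 libraries of each gene were checked with Dixon's test, and 4 of the 40 groups had a library far from the others. The chance rate of about 1 in 20 holds for independent, normally spread values. It does not apply to counts near 0 or to genes that vary together, as HOXD4 and HOXD8 do. A group with counts in only 1 library is always flagged, which holds for HOXC9 and HOXD10 below. HOXD10 in the descending aorta, at 0 throughout, could not be flagged. HOXD4 in ascending replicate 4 was at 11.0 CPM against 1.25 to 1.51 in the other 3 ascending libraries. HOXD8 in the same library was at 6.16 CPM against 0.864 to 1.25. HOXC9 there was at 0.0604 CPM against 0 in the others, which is a single count. HOXD10 in suprarenal replicate 3 was at 0.571 CPM against 0 in the other 3 suprarenal libraries, or 9 counts. The marker sums of both libraries stand beside the results above, and their part in these values was not tested.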

How the results depend on the processing

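Of 38 calls of members over 8 comparisons, 28 were kept in every alternative run and 10 were lost in at least 1, and 0 called values changed sign. For descending against ascending aorta, where 2 members were called, DESeq2 called 6, limma voom 1, the fit without the 3 libraries 5 and the fit of only the 8 libraries compared 0, and leaving out 1 library gave 1 to 4. Over all tested genes edgeR called 18 there, DESeq2 177 and limma voom 9. For infrarenal against suprarenal aorta, where 0 were called, fitting without a filter gave 1, DESeq2 3, limma voom 1, the replicate block 2 and the fit without the 3 libraries 3, and leaving out 1 library gave 0 to 2. Over all tested genes edgeR called 32 there, the fit without a filter 51 of 24568, DESeq2 167, limma voom 15 and the replicate block 84. For suprarenal against ascending aorta, where 5 were called, the fit of the 8 libraries gave 2, and leaving out 1 library gave 3 to 6. Over all tested genes the main fit called 41 there.

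Signs changed only where nothing was called. HOXC6 in infrarenal against suprarenal aorta gave -0.021 with library totals, -0.0079 with limma voom and -0.12 to 0.19 in fits without 1 library. HOXD10 in suprarenal against ascending aorta gave -0.40 with limma voom, -3.22 without the 3 libraries and -3.20 to 1.57 in fits without 1 library, the lowest being that without suprarenal replicate 3. HOXD9 in descending against ascending aorta gave -0.023 with library totals, -0.00058 without a filter, -0.00041 with the stricter filter, -0.0024 with the 8 libraries, -0.061 with the replicate block and -0.51 to 0.74 in fits without 1 library. The paralog differences HOXC8 minus HOXD8 and HOXC9 minus HOXD9, whose ascending values are set by the added CPM, were -0.12 and -0.33 in infrarenal against ascending aorta and -0.17 and 0.77 in descending against ascending aorta. With a pseudocount of 0.25 they became 0.54 (HOXC8 minus HOXD8) and 0.25 (HOXC9 minus HOXD9) in the first comparison and 0.31 (HOXC8 minus HOXD8) in the second, so nothing is read from them. Leaving out 1 library gave -0.90 to 0.14 for HOXC4 minus HOXD4 and -0.57 to 0.087 for HOXC8 minus HOXD8 in the first comparison, and -0.63 to 0.030 for HOXC8 minus HOXD8 in the second. The cause of these changes was not tested.

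Libraries with the same number tended to deviate together, though not all did. Over 24 same-numbered pairs the median correlation of deviations was 0.344 (-0.173 to 0.575), and 19 were over 0.1. Over 72 pairs of different number the median was -0.0947 (-0.499 to 0.606), and 10 were over 0.1. Of the 16 libraries 15 lay closest to their own number. The labels do not say whether same-numbered libraries share an animal. The main fit did not take them as pairs, so its p-values ignore this likeness. With the replicate block 9 members were called for any difference, 10 for the slope, 10 for infrarenal against ascending, 5 for infrarenal against descending (4 higher and HOXC5 lower), 2 for infrarenal against suprarenal, 0 for suprarenal against descending, 5 for suprarenal against ascending and 3 for descending against ascending aorta. Over all 15926 tested genes the block called 532, 878, 843, 432, 84, 0, 76 and 62 in the same order. The main fit called 322, 592, 556, 263, 32, 0, 41 and 18. HOXC5 gained calls under the block, with -0.91 in infrarenal against descending aorta (adjusted p = 0.0239), 1.09 in infrarenal against ascending aorta (adjusted p = 0.00611) and a slope of 0.30 (adjusted p = 0.0123). HOXD10 in suprarenal against descending aorta gave no value without suprarenal replicate 3, since both regions then had 0 counts. With 1 count worth at least 0.0478 CPM, levels of HOXC8, HOXC9 and HOXD10 in the ascending aorta are at the limit of depth.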
